A study of Mus musculus with 8 samples.

Results

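Toll-like receptors and other innate sensors were followed in B-1a cells, a B cell subset of the body cavities, after deletion of the gene for PTIP. The set holds 37 genes, chosen by name: the mouse Toll-like receptors with their co-receptors, trafficking factors, adaptors and kinases, and the cytosolic sensors of the NOD-like, RIG-I-like, AIM2 and inflammasome families with their adaptors. For each gene the probe set whose annotated symbol was the gene's was used, and where there were several, the brightest on average. This gave 34 of the 37 genes, among 22180 named genes in all. No probe set was named here for Irak4 or Ripk2, and the one listed for Irf5 also carries the symbol Tnpo3, so these 3 genes were not analysed here.

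KO mice were PTIPflox/flox and the controls, labelled WT, were PTIP+/+, and both genotypes carried the same heterozygous Cre allele, which is active in B lineage cells. All mice were 5 weeks old. B-1a cells were sorted from peritoneal lavage of 29 KO and 22 WT mice, which were divided into 4 pools per genotype, with 1 Affymetrix array per pool. The values are log2 values, on which a difference of 1 is a doubling, and Paxip1, the gene for PTIP, had 4.66, 4.48, 4.79 and 3.58 in KO pools 1 to 4, against 6.87, 7.13, 7.16 and 7.03 in WT pools 1 to 4.

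Toll-like receptors recognise microbial molecules. Those at the cell surface bind lipoproteins, lipopolysaccharide and flagellin, and those in endosomes bind nucleic acids; the chaperones Unc93b1 and Cnpy3 bring many of them to their place. Most signal through the adaptor Myd88 and the IRAK kinases to NF-kB, whereas Tlr3, and Tlr4 from endosomes, signal through Ticam1 (TRIF). B-1a cells are known for responding to such ligands by leaving the cavity and secreting natural antibody. PTIP is a subunit of the histone methyltransferase complexes that act at enhancers and promoters. The comparison asks which of these transcripts differ when it is lost.

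Of the 34 measured genes, 10 were called between KO and WT, 3 of them higher in KO (Tlr3, Nod1 and Tlr6) and 7 lower in KO (Tlr1, Tlr2, Cnpy3, Pycard, Irak2, Ticam1 and Irak1). A gene is described as called where limma's adjusted p (Benjamini-Hochberg over all 22180 genes) was under 0.05. That is 29.4% of the measured set, while 3.59% of all named genes were called, 1.49% as higher and 2.1% as lower. The members were chosen with earlier results of these data known, so setting such shares side by side is no test of the set. Calls were more frequent among brighter genes: of the genes above the median level, 6.65% were called, and 10 of the 29 members there (34.5%). When only those genes were tested and adjusted, 9.17% of them were called, and 11 of the 29 members. In 17 of the 34 genes the 4 KO values did not overlap the 4 WT values, as was so for 10.5% of all named genes. The differences were small, between 1.33-fold for Irak1 and 1.69-fold for Tlr3 among the called genes. With KO pools 1 and 2 left out, 0 of the 34 were called by limma. The same held with the mean of T cell markers as a covariate. In each fit 16 had an unadjusted p under 0.05, and the share of all named genes with such a p was not taken there. All 10 differences kept their sign. Omission of pools could not change it, as KO and WT values did not overlap in any of the 10. Over all 8 pools 17 of the 34 had an unadjusted p under 0.05, as did 15.3% of all named genes.

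**Figure D1:**
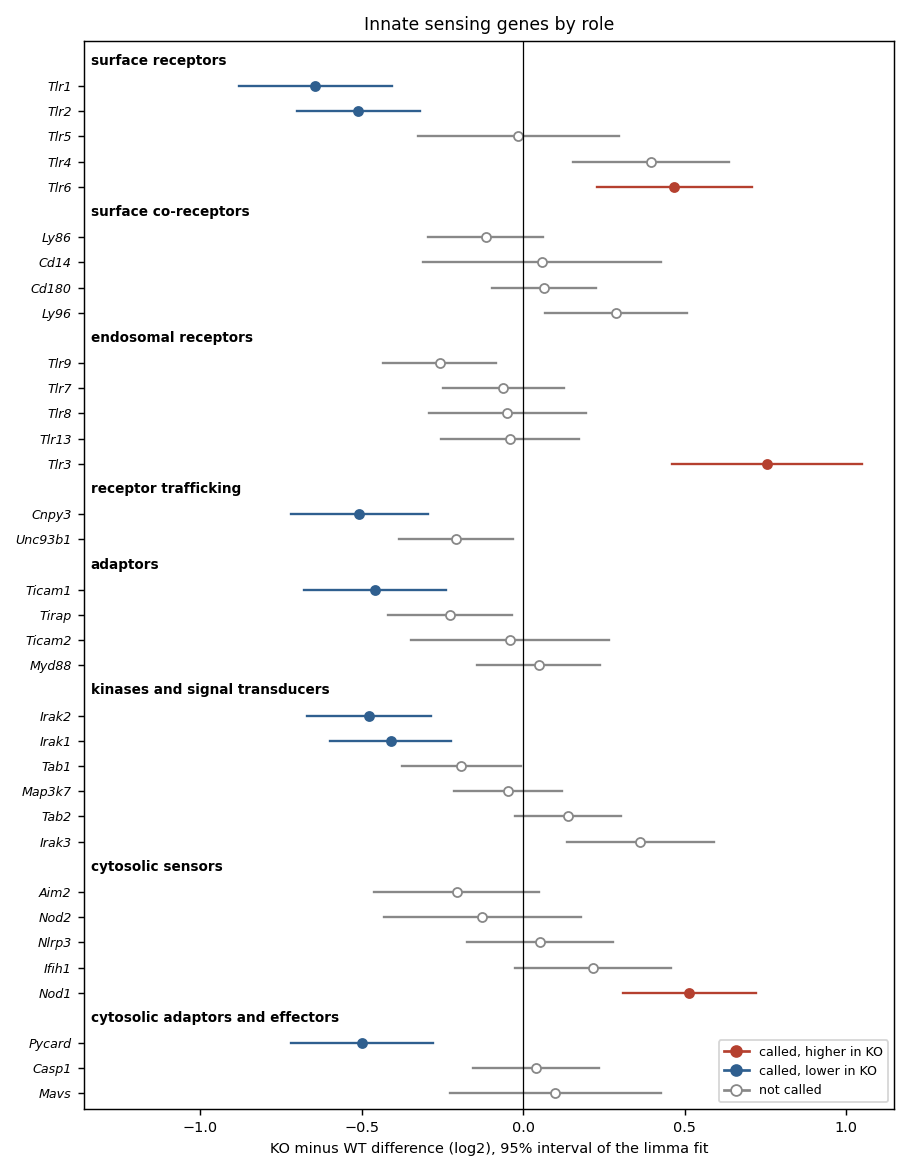
KO minus WT differences on the log2 scale (points) with their 95% intervals from the limma fit (lines) for the 34 measured genes, grouped by role; filled points are called genes. Called genes lie on both sides of 0 among the surface receptors, with Tlr1 at -0.64 and Tlr6 at 0.47.

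The sorted cells carried the B cell markers at closely similar levels in both genotypes. The mean log2 value of 7 B cell markers, Cd5 and Bhlhe41 among them, lay between 9.69 and 9.80 in KO pools and between 9.71 and 9.79 in WT pools, and 0 of the 7 were called by limma, none with an unadjusted p under 0.05. Of 13 T cell markers 12 were on the side of higher values in KO, and their mean was 7.02, 6.76, 5.08 and 5.56 in KO pools 1 to 4, against 5.29, 5.44, 4.76 and 4.55 in WT pools 1 to 4. By limma 0 of the 13 were called, but 9 had an unadjusted p under 0.05. Their differences ran from -0.17 (Cd2) to 2.75 (Il7r), with a median of 0.87. The 10 NK and innate lymphoid markers all had positive differences, with means of 4.33 to 5.61 in KO and 3.55 to 4.44 in WT, and 2 of them, Klrd1 and Klrb1c, were called. Of these 10, 6 had an unadjusted p under 0.05, and the differences ran from 0.04 to 2.24. KO pools 1 and 2 were the highest for both lists. Of 14 peritoneal macrophage markers 6 had positive differences, and their means ran from 4.53 to 4.81 in KO and from 4.41 to 5.22 in WT, with WT pool 1 the highest; Cd68 was the only one called, at -0.56. Dendritic cell and monocyte markers were on the higher side in KO in 7 of 8 cases, with means of 4.31 to 4.83 in KO and 4.02 to 4.41 in WT, and 0 were called by limma (3 with an unadjusted p under 0.05). Of 9 granulocyte and mast cell markers 6 had positive differences, with means of 3.22 to 3.51 in KO and 3.06 to 3.74 in WT. No marker reads 0 on this scale. In such sorted bulk samples fewer cells of a type and less RNA per cell cannot be told apart.

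**Figure D2:**
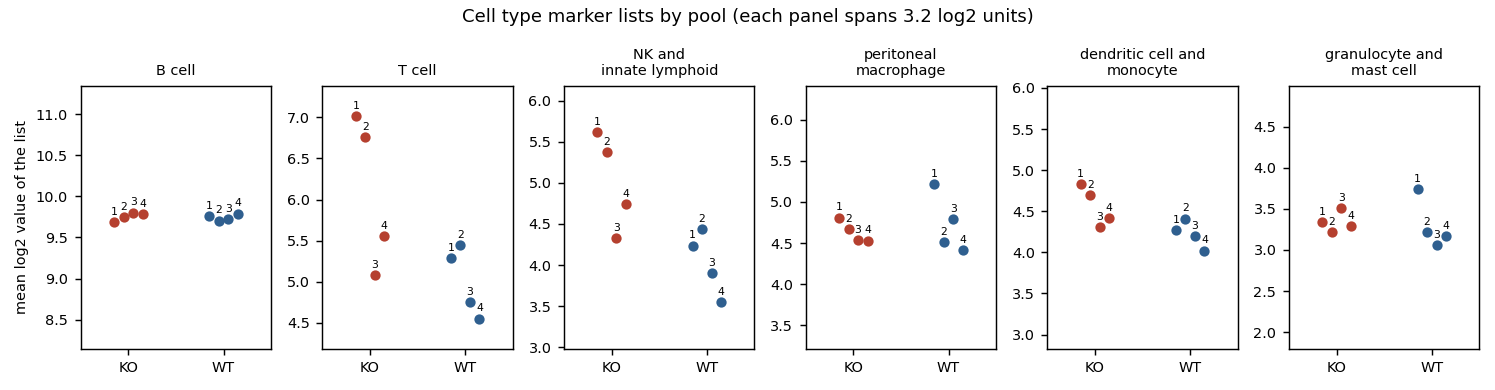
Mean log2 value of each cell type marker list in every pool (points, numbered by pool, KO left of WT), with the same axis span in each panel. B cell markers are level, while KO pools 1 and 2 stand highest for the T cell and NK markers.

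The surface receptors went in both directions. Tlr1 and Tlr2, which pair to bind bacterial triacyl lipopeptides, fell, while Tlr6, the other partner of Tlr2, which serves for diacyl lipopeptides, rose. Tlr1 and Tlr6 are paralogs and lie next to each other on chromosome 5 in the RefSeq gene order, between Klf3 and Fam114a1. Tlr1 had 8.33, 8.41, 8.57 and 8.09 in KO pools 1 to 4, against 9.08, 8.97, 8.86 and 9.06 in WT pools 1 to 4. Every KO pool was below every WT pool, the means being 8.35 ± 0.20 in KO and 8.99 ± 0.10 in WT (SD, n = 4 pools each), and the difference was -0.64 (SE 0.11; limma, adjusted p = 0.00762), or 1.56-fold lower. Tlr6 had 8.34, 8.71, 8.70 and 8.60 in KO pools 1 to 4, against 8.04, 8.12, 8.33 and 7.99 in WT pools 1 to 4. The groups met closely, since the lowest KO pool, pool 1, lay just above the highest WT pool, pool 3. The difference of Tlr6 was 0.47 (SE 0.11; limma, adjusted p = 0.0409), and it was not called when KO pool 2, 3 or 4 or WT pool 1, 2 or 4 was left out (adjusted p up to 0.115) or with the macrophage marker mean as a covariate (0.0658). The flanking genes Klf3 and Fam114a1 stood at differences of -0.02 and -0.13, neither of them called. The sources used here do not say whether the probes of Tlr1 and Tlr6 lie in regions that these paralogs share.

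Tlr2 is the common partner of both. It had 5.67, 5.73, 5.73 and 5.85 in KO pools 1 to 4, against 6.25, 6.12, 6.39 and 6.26 in WT pools 1 to 4. The groups did not overlap, and the KO pools lay within a narrow range. Its mean was 5.74 ± 0.08 in KO and 6.25 ± 0.11 in WT (SD, n = 4 pools each), or -0.51 as a difference (SE 0.09; limma, adjusted p = 0.00797).

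Tlr4, the receptor for lipopolysaccharide, was not called. It had 5.66, 5.71, 5.81 and 5.79 in KO pools 1 to 4, against 5.35, 5.07, 5.61 and 5.35 in WT pools 1 to 4. The groups did not overlap, but WT pool 3 stood close to the KO pools, and the difference was 0.40 (95% interval 0.15 to 0.64; limma, adjusted p = 0.0849). Without WT pool 3 it was 0.48 and called (adjusted p = 0.0386), and it was also called when only genes above the median level were tested (adjusted p just under the threshold). Tlr5, the flagellin receptor, was dim, with values from 3.09 to 3.52 in KO and from 3.16 to 3.73 in WT, and differed by -0.02 (95% interval -0.33 to 0.30). Its mean over all arrays lay below the median of all named genes at 3.81, a range in which RMA values flatten out and differences are understated.

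To show the start regions of the Toll-like receptor genes that were called, the 250 bases before the most upstream RefSeq transcript start of each are given here (assembly GRCm38.p6, minus strand, written 5′ to 3′ along the gene, from RefSeq). Capitals mark matches, on either strand, to GGG and CC spaced by 5 bases (an NF-kB-like motif), to 2 copies of GAAA spaced by 2 bases (as in the interferon-stimulated response element), to GAGGAA (a PU.1-like motif) or to TATAAA.
Tlr1, chr5:64933559-64933808, minus strand: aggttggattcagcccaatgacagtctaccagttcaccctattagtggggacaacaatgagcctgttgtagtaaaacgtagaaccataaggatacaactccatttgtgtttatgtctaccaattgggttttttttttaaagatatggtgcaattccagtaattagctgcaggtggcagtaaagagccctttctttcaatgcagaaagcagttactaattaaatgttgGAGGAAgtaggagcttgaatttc
Tlr6, chr5:64960049-64960298, minus strand: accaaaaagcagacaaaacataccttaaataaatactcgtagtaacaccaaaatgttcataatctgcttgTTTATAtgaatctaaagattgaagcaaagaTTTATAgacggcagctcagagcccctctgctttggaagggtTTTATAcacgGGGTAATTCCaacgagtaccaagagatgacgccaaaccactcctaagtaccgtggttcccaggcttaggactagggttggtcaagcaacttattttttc
Tlr2, chr3:83841609-83841858, minus strand: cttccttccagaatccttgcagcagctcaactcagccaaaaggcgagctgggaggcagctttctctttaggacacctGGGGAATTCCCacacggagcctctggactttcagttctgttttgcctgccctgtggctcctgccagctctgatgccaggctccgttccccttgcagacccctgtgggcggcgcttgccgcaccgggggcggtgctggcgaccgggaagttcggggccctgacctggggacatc
Tlr3, chr8:45410381-45410630, minus strand: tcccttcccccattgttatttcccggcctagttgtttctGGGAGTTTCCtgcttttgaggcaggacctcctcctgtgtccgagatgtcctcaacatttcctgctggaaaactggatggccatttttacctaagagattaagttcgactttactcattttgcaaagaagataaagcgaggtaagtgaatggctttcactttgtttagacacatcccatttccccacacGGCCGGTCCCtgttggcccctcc

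The neighbours Tlr1 and Tlr6 differed in these windows. The Tlr1 window held 1 match, to GAGGAA, and 1 CpG dinucleotide. In the Tlr6 window there were 3 matches to TATAAA, all on the other strand, 1 to the NF-kB-like motif and 6 CpG dinucleotides. Tlr2 had 2 overlapping matches to the NF-kB-like motif and 11 CpG, and Tlr3 had 2 separate matches to it and 6 CpG. Tlr1 and Tlr6 each have a second RefSeq start, and the window before the second start of Tlr6 held 2 matches to the interferon-type motif, which the printed one lacks. It held no match to the other motifs and 4 CpG. The window before the second start of Tlr1 held no match and 8 CpG, so the order of the CpG counts was reversed there. RefSeq windows were found for 27 of the 34 measured genes. In the window before the most upstream start of each gene, the NF-kB-like motif occurred in 7 of 10 called genes and 6 of 17 others, against 45.8% of all 32851 windows of this length. The share of all windows was 23.3% for GAGGAA, found in 4 of the 10 called genes and 7 of the 17 others, 12.4% for TATAAA, found in 2 of the 10 and 2 of the 17, and 3.0% for the interferon-type motif, found in 0 of the 10 and 1 of the 17. Counting the windows of second starts too, the NF-kB-like motif was in 7 of the 10 and 7 of the 17, GAGGAA in 4 and 9, TATAAA in 2 and 2, and the interferon-type motif in 1 and 1. The median number of CpG dinucleotides was 11.0 in the 7 genes lower in KO (range 1 to 21) and 6.0 in the 3 higher in KO (6 to 12). It was 6.0 in the 17 others (0 to 33) and 6.0 over all windows (0 to 56), so the ranges overlapped. These matches are descriptions of the letters only.

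**Figure D3:**
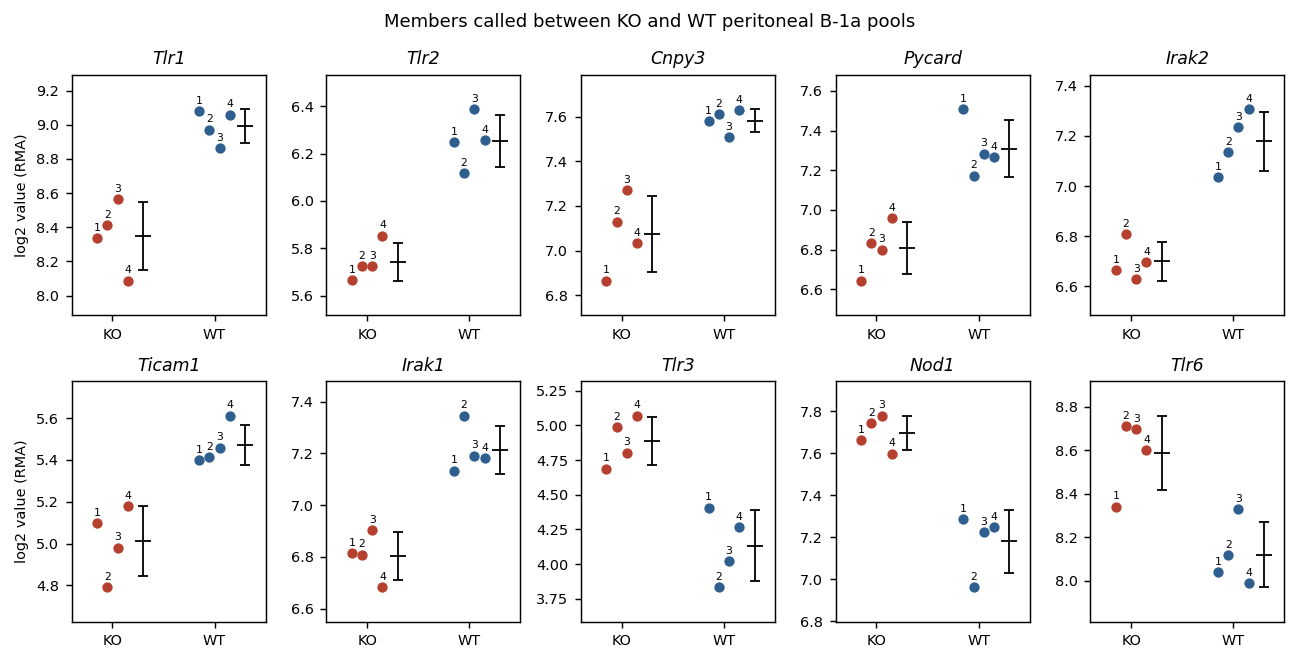
Log2 values of the 10 called genes in each pool (points, numbered by pool, KO left of WT) with the mean and SD of 4 pools beside them; each panel has its own axis. The 4 KO values do not overlap the 4 WT values in any of the 10, and Tlr6 has the narrowest gap between its groups.

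None of the 4 surface co-receptors was called, 1 of them with an unadjusted p under 0.05. Cd180, a Toll-like receptor homologue that restrains or tunes lipopolysaccharide responses in B cells, had values from 9.90 to 9.98 in KO and from 9.83 to 9.93 in WT, and a difference of 0.06 (95% interval -0.10 to 0.23). Ly86, the secreted partner of Cd180, had 10.16, 10.26, 10.29 and 10.37 in KO pools 1 to 4, against 10.29, 10.38, 10.41 and 10.46 in WT pools 1 to 4. The groups overlapped, and the difference was -0.12 (95% interval -0.29 to 0.06). Ly96, which Tlr4 needs to bind lipopolysaccharide, had 7.42, 7.31, 7.43 and 7.56 in KO pools 1 to 4, against 7.28, 6.91, 7.17 and 7.23 in WT pools 1 to 4. All KO pools were above all WT pools, by a difference of 0.29 that was not called (95% interval 0.07 to 0.51; limma, adjusted p = 0.182). Cd14, the lipopolysaccharide carrier of myeloid cells, had a mean below the median of all named genes, with values of 3.34 to 3.71 in KO and 3.12 to 3.97 in WT. Its highest value was in WT pool 1, the pool with the highest macrophage marker mean.

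Among the endosomal receptors Tlr3 alone was called. Tlr3, the receptor for double-stranded RNA, had 4.69, 4.99, 4.80 and 5.07 in KO pools 1 to 4, against 4.41, 3.83, 4.02 and 4.27 in WT pools 1 to 4. All KO pools were above the highest WT pool, at 4.89 ± 0.17 in KO and 4.13 ± 0.26 in WT (SD, n = 4 pools each). The difference of 0.75 (SE 0.13; limma, adjusted p = 0.0104) was the largest of the 34 in size, and a WT level not far above the median of all named genes means that it may be understated.

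Tlr9, the receptor for unmethylated CpG DNA, had 9.21, 9.17, 9.23 and 9.10 in KO pools 1 to 4, against 9.35, 9.55, 9.40 and 9.45 in WT pools 1 to 4. The groups did not overlap, yet the difference of -0.26 was not called (95% interval -0.43 to -0.08; limma, adjusted p = 0.122), except with an intensity trend and a robust prior (0.0289). Tlr7, the receptor for single-stranded RNA, had values of 7.83 to 8.02 in KO and 7.89 to 8.08 in WT, which overlapped, and a difference of -0.06 (95% interval -0.25 to 0.12). Tlr8 and Tlr13, RNA sensors of myeloid cells, were below the median of all named genes in every pool, at 2.64 to 3.04 in KO and 2.49 to 3.22 in WT over both genes, with differences of -0.05 and -0.04.

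Both trafficking factors were lower in every KO pool than in any WT pool, and the fall of Cnpy3 was called. Cnpy3, a chaperone of the endoplasmic reticulum needed for the folding of several surface and endosomal Toll-like receptors but not of Tlr3, had 6.87, 7.13, 7.27 and 7.03 in KO pools 1 to 4, against 7.58, 7.61, 7.51 and 7.63 in WT pools 1 to 4. The WT pools were tightly grouped and the KO pools spread more, with means of 7.07 ± 0.17 in KO and 7.58 ± 0.05 in WT (SD, n = 4 pools each). Its difference was -0.51 (SE 0.10; limma, adjusted p = 0.0147). Unc93b1, which carries the nucleic acid receptors to endosomes, had 9.71, 9.73, 9.91 and 9.76 in KO pools 1 to 4, against 9.95, 9.99, 10.05 and 9.94 in WT pools 1 to 4. KO pool 3 came close to the lowest WT pool, and the difference of -0.21 was not called (95% interval -0.38 to -0.03; limma, adjusted p = 0.236).

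Of the adaptors only Ticam1 was called. Ticam1, the adaptor of Tlr3 and of endosomal Tlr4, had 5.10, 4.79, 4.98 and 5.18 in KO pools 1 to 4, against 5.40, 5.41, 5.46 and 5.61 in WT pools 1 to 4. The groups did not overlap, and Ticam1 fell while Tlr3, the receptor that uses it, rose. Its difference was -0.46 (SE 0.10; limma, adjusted p = 0.0309); the call was kept without KO pool 4 but lost when any of the other 7 pools was left out (adjusted p up to 0.0913), and lost with repeated quantile normalization (0.0686). Tirap, which bridges Tlr2 and Tlr4 to Myd88, had 4.71, 4.82, 4.78 and 4.60 in KO pools 1 to 4, against 4.87, 5.09, 4.98 and 4.88 in WT pools 1 to 4. The groups did not overlap, but the difference of -0.23 was not called (95% interval -0.42 to -0.03; limma, adjusted p = 0.235). Myd88 itself was at 6.15 to 6.34 in KO and 6.03 to 6.26 in WT, a difference of 0.05 with a 95% interval of -0.14 to 0.24. Ticam2, which bridges Tlr4 to Ticam1, differed by -0.04 (95% interval -0.35 to 0.27).

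Among the kinases Irak1 and Irak2 fell and Irak3, which lacks kinase activity and restrains the pathway, lay on the other side. Irak2 had 6.67, 6.81, 6.63 and 6.70 in KO pools 1 to 4, against 7.04, 7.13, 7.24 and 7.31 in WT pools 1 to 4. The groups were well apart, at a difference of -0.48 (SE 0.09; limma, adjusted p = 0.0123). Irak1, the kinase that is released from the receptor complex, had 6.81, 6.81, 6.90 and 6.68 in KO pools 1 to 4, against 7.13, 7.35, 7.19 and 7.18 in WT pools 1 to 4. Every KO pool was below every WT pool, and the difference was -0.41 (SE 0.08; limma, adjusted p = 0.0236). The call of Irak1 was lost when KO pool 1, 2 or 4 or WT pool 2, 3 or 4 was left out (adjusted p up to 0.0712). Irak3 had values of 6.11 to 6.50 in KO and 5.74 to 6.01 in WT. All KO pools were above all WT pools, and the difference of 0.36 was not called (95% interval 0.13 to 0.59; limma, adjusted p = 0.0941), though it was after repeated quantile normalization (0.42; adjusted p = 0.0499). The kinase Map3k7 (TAK1) and its partners Tab1 and Tab2, which pass the signal to NF-kB and MAP kinases, had differences of -0.05, -0.19 and 0.14, none of them called.

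The cytosolic sensors held 1 called rise. Nod1, a sensor of bacterial peptidoglycan fragments, had 7.66, 7.74, 7.78 and 7.60 in KO pools 1 to 4, against 7.28, 6.96, 7.23 and 7.25 in WT pools 1 to 4. All KO pools were above all WT pools, WT pool 2 being the lowest, and the difference was 0.51 (SE 0.09; limma, adjusted p = 0.0120). Nod2, its relative for muramyl dipeptide, differed by -0.13 (95% interval -0.43 to 0.18), and by -0.04 at its other probe set. Ifih1 (MDA5), a sensor of long double-stranded RNA, had 5.09, 4.74, 4.70 and 4.71 in KO pools 1 to 4, against 4.74, 4.46, 4.50 and 4.68 in WT pools 1 to 4. KO pool 1 stood alone above the other KO pools, the groups overlapped, and the difference of 0.22 was not called (95% interval -0.03 to 0.46; limma, adjusted p = 0.389). Aim2, a sensor of cytosolic DNA, lay between 7.63 and 8.02 in KO and between 7.84 and 8.17 in WT, with a difference of -0.21 (95% interval -0.46 to 0.05). Nlrp3, an inflammasome sensor best known in myeloid cells, was below the median of all named genes in every pool and differed by 0.05.

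Pycard (ASC), the adaptor that joins inflammasome sensors to Casp1, had 6.64, 6.83, 6.80 and 6.96 in KO pools 1 to 4, against 7.51, 7.17, 7.28 and 7.27 in WT pools 1 to 4. The groups did not overlap, with means of 6.81 ± 0.13 in KO and 7.31 ± 0.14 in WT (SD, n = 4 pools each), and the difference was -0.50 (SE 0.10; limma, adjusted p = 0.0197). The call of Pycard was lost without KO pool 1 or 2 or WT pool 3 (adjusted p up to 0.0567). Casp1, the protease itself, was at 8.07 to 8.32 in KO and 8.10 to 8.27 in WT, a difference of 0.04 (95% interval -0.15 to 0.24). Mavs, the mitochondrial adaptor of Ifih1, had 6.89, 6.76, 7.12 and 6.75 in KO pools 1 to 4, against 6.53, 6.60, 7.22 and 6.78 in WT pools 1 to 4. WT pool 3 held the highest value and WT pool 1 the lowest, so the groups overlapped, and the difference of 0.10 was not called (95% interval -0.23 to 0.43).

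Surface, endosomal and cytosolic receptors had median differences near 0. The median was -0.02 over the 5 surface receptors, -0.05 over the 5 endosomal receptors and 0.05 over the 5 cytosolic sensors, beside 0.02 over all named genes. In size, without regard to sign, the median difference was 0.47 for the surface receptors, 0.06 for the endosomal receptors and 0.21 for the cytosolic sensors, beside 0.10 over all named genes. Over only the genes above the median level of all named genes it was 0.49 for 4 surface receptors, 0.26 for 3 endosomal receptors (Tlr3, Tlr7 and Tlr9) and 0.21 for 4 cytosolic sensors. The median differences of the other classes were -0.36 for the 2 trafficking factors, -0.13 for the 4 adaptors, -0.12 for the 6 measured kinases and signal transducers, 0.06 for the 4 co-receptors and 0.04 for the 3 measured cytosolic adaptors and effectors. Of the surface receptors 3 of 5 were called, of the endosomal receptors 1 of 5, of the cytosolic sensors 1 of 5, and of the 10 measured adaptors, kinases and signal transducers 3, all lower in KO. Whether the classes differ from one another was not tested. For the surface receptors the sign of the median hangs on Tlr5, which is dim: it was 0.11 without WT pool 3 and 0.13 after adjustment for the mean of the T cell markers.

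The calls of 6 of the 10 genes (Tlr1, Tlr2, Tlr3, Irak2, Cnpy3 and Nod1) were kept whichever single pool was left out. T cell and NK markers were highest in KO pools 1 and 2, so the differences were also taken without those pools and with that marker mean as a covariate. Without the pools the 10 differences were between 84.8% and 113% of their size over all 8 pools, with Tlr1 at -0.67, Tlr2 at -0.46, Tlr3 at 0.80 and Tlr6 at 0.53. Adjusted p in limma then ran from 0.0596 to 0.168. With the covariate they were between 77.9% and 121% of that size, with Tlr1 at -0.63, Cnpy3 at -0.40, Tlr3 at 0.83 and Nod1 at 0.56, and adjusted p from 0.0581 to 0.250. Both fits have fewer degrees of freedom, as has the one with the macrophage marker mean. The T cell marker mean itself ran from 5.08 to 7.02 in KO and from 4.55 to 5.44 in WT, so that covariate overlaps in part with genotype. Why the calls were lost was not tested. With the macrophage marker mean as a covariate 9 of the 10 were called, all but Tlr6.

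**Figure D4:**
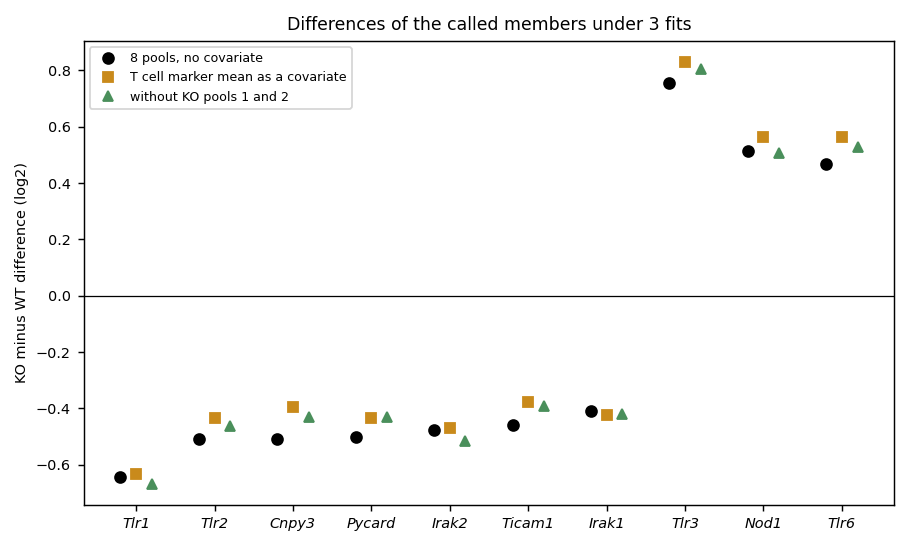
KO minus WT differences (log2) of the 10 called genes over all 8 pools (circles), with the T cell markers as a covariate (squares) and without KO pools 1 and 2 (triangles). Each gene keeps its sign, as it must without KO pools 1 and 2, since its KO and WT values do not overlap. Tlr3 moves between 0.75 and 0.83.

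Beyond the 34 genes, 67 of 73 listed genes of the wider pathway were measured. Of these 8 were called (11.9%, beside 3.59% of all named genes), with 3 up and 5 down in KO pools. These lists too were chosen with earlier results of these data known, so the share is no test of them. Adjusted for the mean of the T cell markers, 2 of the 8 (Il18 and Cd36) were still called. Without KO pools 1 and 2, Il18, Cd36 and Naip6 were. Ikbkb, Peli1, Naip5, Lgmn and Tank were called in neither fit (adjusted p in limma from 0.114 to 0.192). No sign changed, and without those pools none could, as the groups did not overlap in any of the 8. The list of IKK, TRAF and ubiquitin steps had 3 called of 11, the inflammasome list 3 of 16 and the list of receptor maturation and ligand delivery 2 of 13. In the interferon branch 0 of 14 genes were called by limma (5 with an unadjusted p under 0.05), and among the brakes of the pathway 0 of 13 (also 5), beside 15.3% of all named genes with such a p. The median difference over the 67 genes was 0.01.

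Downstream of the receptors, the kinase Ikbkb fell while the ubiquitin ligase Peli1 and the TRAF-binding gene Tank rose. Ikbkb, a catalytic subunit of the kinase that frees NF-kB, had 7.07, 7.18, 7.27 and 7.26 in KO pools 1 to 4, against 7.76, 7.74, 7.52 and 7.79 in WT pools 1 to 4. It was lower in every KO pool, by a difference of -0.51 (SE 0.09; limma, adjusted p = 0.0106). Peli1, which acts on IRAK and TRAF proteins, had 7.20, 7.04, 6.76 and 6.77 in KO pools 1 to 4, against 6.31, 6.04, 6.46 and 6.08 in WT pools 1 to 4. KO pools 1 and 2 were its highest, as they were for the T cell markers, and the difference was 0.72 (SE 0.13; limma, adjusted p = 0.0107). It was 0.54 and not called after adjustment for the mean of the T cell markers (adjusted p = 0.152), and not called without KO pools 1 and 2 (0.114). Tank had values of 7.30 to 7.35 in KO and 6.94 to 7.08 in WT. It differed by 0.33 (SE 0.07; limma, adjusted p = 0.0351). Its call was kept only without WT pool 1 among the omissions of single pools (adjusted p up to 0.0969).

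Of the inflammasome genes, the called ones all fell: Il18, a cytokine matured by Casp1, and Naip5 and Naip6, which sense bacterial flagellin together with Nlrc4. Il18 had 5.10, 4.84, 5.07 and 4.88 in KO pools 1 to 4, against 7.24, 7.21, 7.20 and 7.04 in WT pools 1 to 4. Naip6 had 4.31, 3.91, 4.51 and 4.45 in KO pools 1 to 4, against 5.44, 5.05, 5.25 and 5.16 in WT pools 1 to 4. Naip5 had 6.32, 6.52, 6.88 and 6.18 in KO pools 1 to 4, against 7.01, 7.30, 7.41 and 7.23 in WT pools 1 to 4. None of the 3 overlapped between the groups, and the differences were -2.20, -0.93 and -0.76 in that order (limma, adjusted p = 1.04e-06, 0.00327 and 0.0158). Naip5 lost its call without KO pool 1 or WT pool 3 (adjusted p up to 0.0537), and Naip5 and Naip6 are such near relatives that their probe sets may share target sequence.

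In the maturation list Lgmn, an endosomal protease that cleaves Tlr9, fell and the lipid receptor Cd36, a co-receptor of Tlr2 with Tlr6, rose. Lgmn had 5.94, 6.07, 6.15 and 6.17 in KO pools 1 to 4, against 6.80, 7.15, 6.36 and 6.77 in WT pools 1 to 4. WT pool 3 lay nearest to the KO pools, and the difference was -0.69 (SE 0.14; limma, adjusted p = 0.0245), a call lost without KO pool 1 or 2 or WT pool 1 or 4 (adjusted p up to 0.0718). Cd36 had 7.21, 7.27, 7.26 and 8.02 in KO pools 1 to 4, against 6.41, 4.95, 5.71 and 6.06 in WT pools 1 to 4. KO pool 4 was the highest and the WT pools were spread widely, with a difference of 1.66 (SE 0.28; limma, adjusted p = 0.00797).

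**Figure D5:**
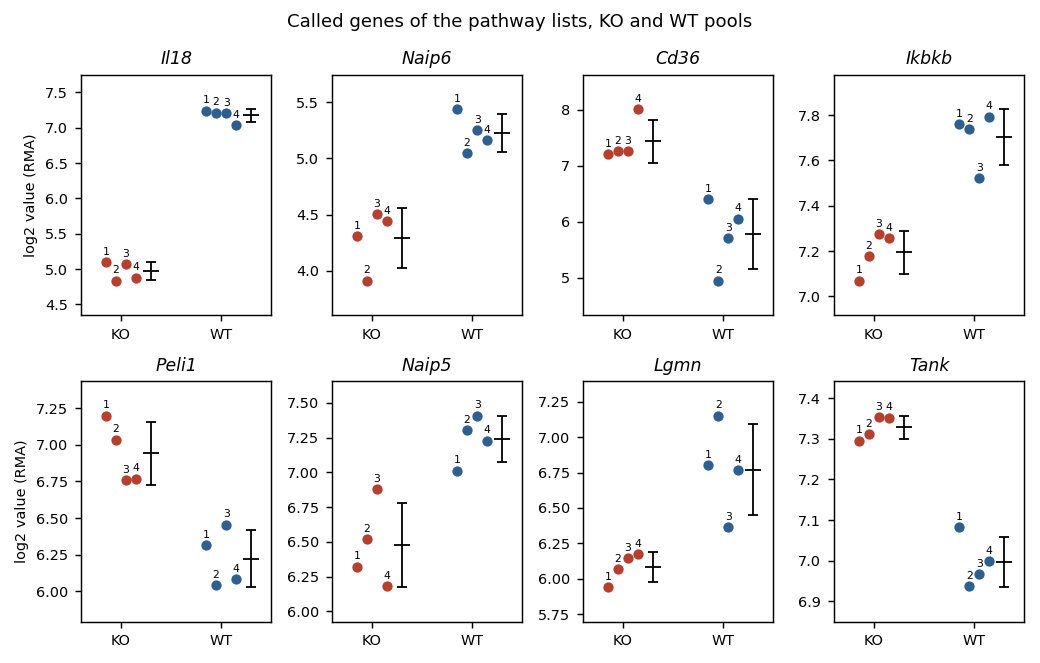
Log2 values of the 8 called genes of the wider pathway in each pool (points, numbered by pool, KO left of WT) with the mean and SD of 4 pools; each panel has its own axis. Il18 shows the widest gap between the groups, at -2.20.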

How the data were processed

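RNA of 4 KO and 4 WT pools of sorted peritoneal B-1a cells was measured on 8 arrays. The deposited log2 values of 41345 probe sets were made by the authors with RMA in R 3.2.2, per the submitters' processing notes; RMA corrects background, gives all arrays 1 distribution and summarises probes, so values are relative to the other genes of an array. The sources used here name neither the package nor the probe set definition. Array medians lay between 3.68 and 3.74. The labels call the samples biological replicates, each a pool of mice, and give no scan or sort batch. Precision is limited by the number of arrays.

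Of 25335 annotated probe sets, 23521 had 1 gene symbol and were used, 1814 had several, and 16010 probe sets were not listed. Names were updated through RefSeq gene identifiers (GRCm38.p6). KO was compared with WT using limma 3.58.1 in R 4.3.3 (lmFit, eBayes, two-sided, Benjamini-Hochberg over 22180 genes, no filter on low values). The replicate numbers were not used as pairs in the main fit. Deviations of same-numbered pools from their group means correlated at 0.11, 0.04, 0.04 and 0.04 for pools 1 to 4. The same-numbered WT pool was the best match for KO pools 1 and 2, but not for KO pools 3 and 4. These values cannot exclude pairing, and a fit with the replicate number as a block is given below. The members, lists and named genes were chosen with earlier results of these data known. Every pool's value is given for called members, for the 2 members of smallest p in each role class and for the 8 called pathway genes; Tlr4 was added after its values were seen. Alternatives changed the probe set choice, the genes tested, the scaling, the prior, the array weights and the pairing, and left out each pool; 4 further ones (2 marker covariates, omission of KO pools 1 and 2, and no moderation of the variance) were added after the values were seen.

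The fit was tested on simulated data for 22180 genes and 4 against 4 arrays. Of 50 genes changed 1.35-fold it recovered 32%; the share was 66% for a change of 1.5-fold and 92% for 2-fold, and 8 of its 149 calls were false. The changed genes were all above the median level, and 149 calls are fewer than the 797 in the data. With fewer calls the adjustment is stricter, so these shares may be too low for the data. Differences of the size reported here can still be missed. The simulated noise was drawn independently for each gene. Variation that many genes share across pools, as seen in the T cell markers, was not simulated, so the share of false calls does not cover it. RefSeq promoter windows were searched for motifs on both strands. Their orientation was checked in 874 pairs of overlapping windows of the same gene, on the minus strand only.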

Additional observations from a re-analysis of the deposited data

Results flagged for a closer look

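In 4 of 86 groups of 4 pools, covering the 34 measured genes, the 8 called pathway genes and Paxip1, 1 pool stood so far from the other 3 that the gap passed Dixon's 95% critical share of the group's range. Chance alone flags about 1 in 20 such groups. Ifih1 was 5.09 in KO pool 1, above the other KO pools at 4.70 to 4.74. Cd36 was 8.02 in KO pool 4, above the others at 7.21 to 7.27. Tab2 was 7.98 in WT pool 1, above the others at 7.91 to 7.92, and Tab1 was 4.88 in WT pool 3, below the others at 5.05 to 5.08.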

How the results depend on the processing

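All 10 called genes kept their sign in all 20 alternatives, but in most of these the sign could not change. KO and WT values did not overlap in any of the 10, so omission of pools could not reverse a difference. Changes to the prior, the moderation, the genes tested or the pairing left the differences as they were. The numbers called were 3 higher and 7 lower among the 34 genes, 8 in the wider pathway and 797 of all genes. With every probe set of the table tested, the adjustment ran over 41345 of them and 2 higher and 4 lower genes remained called, and 5 in the wider pathway. Leaving out 1 pool gave 2 to 4 higher, 4 to 6 lower, 479 to 758 of all genes and 6 to 8 of the wider pathway; the lower genes numbered 4 without KO pool 1, KO pool 2 or WT pool 3, and all genes 498 without KO pool 2 and 530, 497 and 479 without WT pools 2, 3 and 4. The mean of T cell markers as covariate gave 0, 0, 297 and 3 for higher, lower, all genes and the wider pathway; omission of KO pools 1 and 2 gave 0, 0, 320 and 4; no moderation of the variance gave 0, 2, 303 and 4. Of the 8 pathway genes, 2, 3 and 3 were among those called in these fits. These fits have fewer degrees of freedom, and why calls were lost in them was not tested. The median difference of the surface receptors was -0.02, and 0.13 with the T cell covariate. It ran from -0.084 to 0.11 over the omissions of 1 pool. The medians of the endosomal receptors and of the cytosolic sensors kept their sign in the alternatives run. For the other classes the median was not taken in the alternatives. With the replicate number as a block, 8 of the 34 genes were called, 3 higher and 5 lower, and 666 of all genes; Irak1 (adjusted p in limma = 0.0539), Pycard (0.0586) and Tank (0.0936) lost their calls. Tlr4, Tlr9 and Irak3, not called over all pools, were called in 2, 1 and 1 of their alternatives. Genes near the array's floor (Tlr5, Tlr8, Tlr13, Cd14, Nlrp3) allow no statement on small differences.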
